A study of Mus musculus with 16 samples.

Results

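The genes described here, *Acod1*, *Nos2*, *Slc7a2*, *Ass1*, *Ido1* and *Ch25h*, encode 5 enzymes and 1 transporter through which activated macrophages redirect the metabolism of itaconate, arginine, tryptophan and cholesterol. They were taken by symbol from a table of 26382 mouse genes, and each of the 6 symbols matched 1 gene. The 6 genes were chosen with their levels in HRS-injected against PBS-injected muscle already known, so those levels are given as a description and carry no test. Test results are read for these genes only in contralateral PBS legs against PBS-only mice and in HRS-MBP against HRS legs, contrasts on which the choice did not rest, and elsewhere the genes past the call rule are only counted beside the share of all genes. All 6 genes passed the filter on low values, a mean of at least 0.5 normalized counts over the 16 libraries, but *Ch25h* passed through its level in HRS-injected muscle, since its mean in both PBS groups was below 0.5.

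The samples were hamstring muscle of C57BL/6 mice, female and 8 to 10 weeks of age by the labels, in a model of myositis in which recombinant histidyl-tRNA synthetase (HRS, the Jo-1 autoantigen) is injected into the muscle. Bulk poly(A) RNA was sequenced from 16 libraries of 9 mice, taken on day 14. In 5 mice (m862 to m866), the titles place an injection marked "ma", which they do not explain, in the left leg and PBS in the right leg. The treatment label gives the left legs as HRS at 3 to 5 mg/mL, and the legs gave 5 HRS and 5 contralateral PBS libraries. In 2 mice (m867 and m868), both legs were given PBS, which made 4 PBS-only libraries from only 2 animals. From mice m860 and m861, a single library each was sequenced and no leg is named. The treatment label is HRS at 3 to 5 mg/mL, whereas their titles name a "ma" MBP fusion protein at 2 to 3 mg/mL, and these are called HRS-MBP libraries. The general protocol describes a bilateral injection, 50 μL into each side and 100 μL in all, whereas titles give these PBS legs as the right leg of the same mouse and the treatment label, pbs_contr, sets them apart from the PBS-only legs.

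Macrophages rebuild their metabolism when they are activated. *Acod1* (Irg1) diverts the Krebs cycle intermediate cis-aconitate into itaconate and is known as a gene of macrophages exposed to interferon or microbial products. Arginine is taken up through transporters such as the product of *Slc7a2*, consumed by *Nos2*, which makes nitric oxide, and can be rebuilt from citrulline starting with *Ass1*. *Ido1* opens the kynurenine pathway of tryptophan breakdown, and *Ch25h* makes 25-hydroxycholesterol, an oxysterol with antiviral and chemotactic actions.

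The implied depth, from the size of the smallest step between values, was 37300000 to 73900000 reads in HRS legs, 24700000 to 72800000 in contralateral PBS legs, 8600000 to 40700000 in PBS-only legs and 37300000 to 39600000 in HRS-MBP libraries. A level of 3 reads was worth between 0.0324 and 0.364 normalized counts, depending on the library. The HRS leg of mouse m866 stood apart. The summed level of 14 macrophage markers was 1358 normalized counts there, against 3119 to 6718 in the other 4 HRS legs, 5719 and 6075 in HRS-MBP libraries, and 148 to 432 in the 9 PBS libraries. The summed level of 6 skeletal muscle markers was 146320 in that leg, within the 104879 to 169364 of contralateral PBS legs and above the 35056 to 85541 of the other HRS legs. The defining macrophage markers *Cd68* (2.63 to 8.62 in contralateral PBS legs and 19.8 to 123 in HRS legs) and *Adgre1* (4.65 to 16.7 and 109.5 to 330) were present in all of these libraries. Of the 14 markers, 13 were called higher in HRS than in contralateral PBS legs and 1, *Cd163*, was called lower. Of all tested genes, 16.9% were called higher and 6.27% lower. In bulk muscle, a change in the number of macrophages and a change in RNA per macrophage cannot be told apart.

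The RefSeq promoter windows (GRCm38.p6) matched 3 of the 6 genes, *Acod1*, *Ass1* and *Ch25h*, which all stood higher in every HRS leg than in every contralateral PBS leg. The 250 bases before each RefSeq start, which differs from the start in the deposited table, are shown 5′ to 3′ on the strand of the gene, to give the sequence that these genes carry upstream. Capitals mark the TATA motif TATAAA.

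Acod1 promoter, chr14:103046762-103047011, plus strand: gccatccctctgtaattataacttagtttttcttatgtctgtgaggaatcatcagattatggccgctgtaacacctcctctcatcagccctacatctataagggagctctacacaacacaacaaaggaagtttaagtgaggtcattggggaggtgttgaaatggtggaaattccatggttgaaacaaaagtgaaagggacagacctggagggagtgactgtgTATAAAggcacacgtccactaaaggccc

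Ass1 promoter, chr2:31470020-31470269, plus strand: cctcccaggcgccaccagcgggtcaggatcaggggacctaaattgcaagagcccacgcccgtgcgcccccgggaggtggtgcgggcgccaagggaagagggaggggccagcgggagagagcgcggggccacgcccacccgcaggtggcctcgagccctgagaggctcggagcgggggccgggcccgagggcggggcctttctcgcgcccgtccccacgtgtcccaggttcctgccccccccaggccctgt

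Ch25h promoter, chr19:34475149-34475398, minus strand: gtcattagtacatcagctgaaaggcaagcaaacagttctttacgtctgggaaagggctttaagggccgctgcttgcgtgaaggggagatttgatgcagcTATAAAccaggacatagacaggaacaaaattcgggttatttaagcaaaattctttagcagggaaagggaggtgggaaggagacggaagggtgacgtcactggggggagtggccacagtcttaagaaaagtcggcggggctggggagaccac

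The windows were searched on both strands for TATAAA, for the interferon-response motif GAAANNGAAA, for the STAT6 motif TTCNNNNGAA, for the AP-1 motif TGANTCA and for the NF-κB motif. In *Acod1*, TATAAA began 28 bases before the start, and in *Ch25h* it began 151 bases before it. The *Ass1* window held none of the 5 motifs and was rich in G and C (75.6%, against 44.4% in *Acod1* and 50.4% in *Ch25h*). Of 32851 windows of the same length, 12.4% held TATAAA, 2.98% the interferon-response motif, 5.85% the STAT6 motif, 6.75% the AP-1 motif and 3.9% the NF-κB motif. Apart from TATAAA, none of these letter patterns was present in the 3 windows.

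*Acod1* (ENSMUSG00000022126.6, chr14:103046977-103056573, protein coding) had the largest difference of the 6 genes between HRS and PBS muscle. Its normalized counts in the HRS legs of mice m862 to m866 were 54.2, 56.8, 164, 34.8 and 49.7. Their PBS legs held 0.224, 0.132, 1.89, 0.441 and 0.619. The 4 PBS-only legs held 0.607 and 0.398 (m867, left and right) and 0.456 and 1.33 (m868), and the HRS-MBP libraries held 142 (m860) and 173 (m861). The lowest HRS leg thus lay above the highest PBS library, and the HRS leg of m864 reached the range of HRS-MBP libraries. Group means were 71.9 ± 52.1 (SD, n = 5) in HRS legs, 0.662 ± 0.714 (n = 5) in contralateral PBS legs, 0.699 ± 0.433 (n = 4 legs of 2 mice) in PBS-only legs and 158 ± 22 (n = 2) with HRS-MBP, so the PBS groups did not differ beyond their spread. On the scale of log2(normalized count + 0.5), HRS legs were higher by 5.91 (standard error 0.393) than contralateral PBS legs and by 5.75 (standard error 0.417) than PBS-only legs. The HRS leg of m866, the one with the fewest macrophage markers, was at 49.7, among the others.

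*Nos2* (ENSMUSG00000020826.8, chr11:78920787-78960254, protein coding) encodes inducible nitric oxide synthase. In HRS legs, it measured 11.1, 8.95, 70.4, 5.38 and 9.44 in m862 to m866, and in the contralateral PBS legs 3.08, 4.0, 4.43, 3.35 and 5.17. PBS-only legs were at 5.22 and 3.89 (m867) and 4.69 and 2.30 (m868), and HRS-MBP libraries at 43.8 and 128. HRS legs did not overlap PBS libraries, but the lowest (5.38, m865) was separated from the highest PBS library (5.22) by less than the spread of the PBS groups. The mean of 21.1 ± 27.7 (SD, n = 5) in HRS legs rested largely on m864. The means of contralateral PBS (4.01 ± 0.841, n = 5) and PBS-only legs (4.03 ± 1.27, n = 4) were alike, and that of HRS-MBP was 86.2 ± 59.9 (n = 2). HRS legs were higher than contralateral PBS legs by 1.61 on the log2 scale (standard error 0.508), and by 1.01 without the HRS leg of m864.

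**Figure D1:**
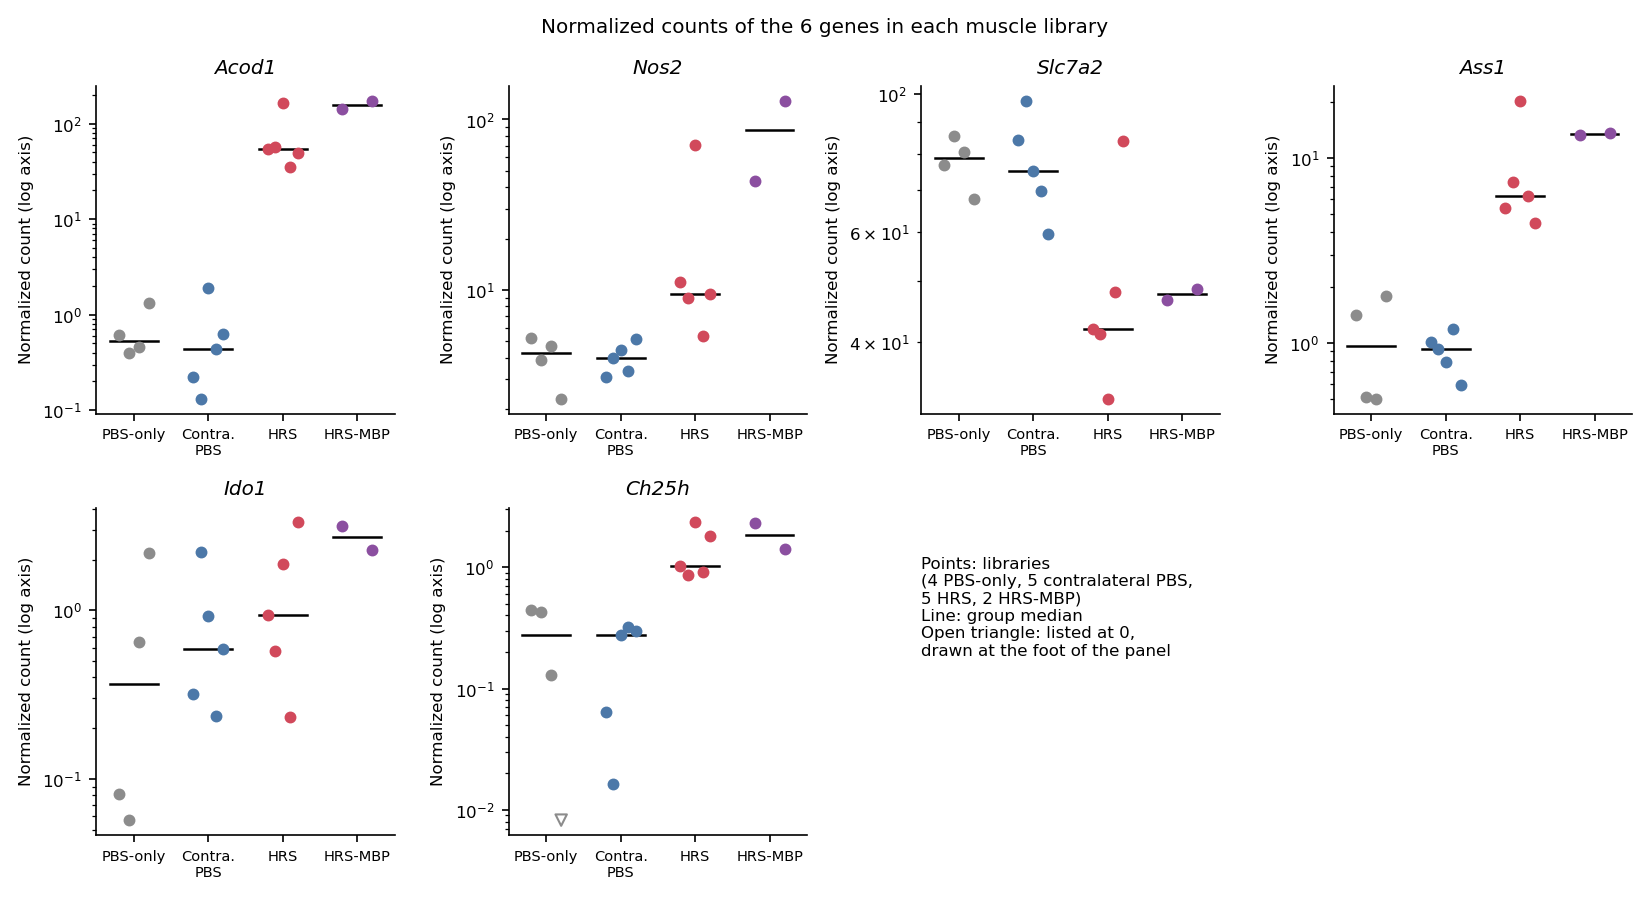
Normalized counts (log axis) of each of the 6 genes in every library, grouped as PBS-only, contralateral PBS, HRS and HRS-MBP, with points for libraries and lines for group medians. *Acod1*, *Ass1* and *Ch25h* separate HRS and HRS-MBP from PBS libraries, the HRS leg of m866 sits at 84.0 among the PBS libraries for *Slc7a2*, *Ido1* overlaps across HRS and PBS groups, and the *Ch25h* value listed at 0 is an open triangle.

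*Slc7a2* (ENSMUSG00000031596.15, chr8:40862396-40922308, protein coding), which encodes the cationic amino acid transporter CAT2, went the other way. HRS legs held 41.9, 41.2, 32.4, 48.1 and 84.0 in m862 to m866, and contralateral PBS legs 84.4, 97.4, 75.1, 69.8 and 59.5. PBS-only legs were at 76.8, 85.5, 80.7 and 67.8, and HRS-MBP libraries at 46.6 and 48.6. In 4 HRS legs, the level lay below every PBS library, and in m866 it lay among them. The mean was 49.5 ± 20.1 (SD, n = 5) in HRS legs, 77.2 ± 14.4 (n = 5) in contralateral PBS legs, 77.7 ± 7.48 (n = 4) in PBS-only legs and 47.6 ± 1.42 (n = 2) with HRS-MBP. The log2 difference was -0.69 (standard error 0.198), and it was -0.28 when each library was scaled to the same total, a scaling that moved the median of all genes from 0.08 to 0.46. Relative to that median, the difference was -0.77 and -0.74. The skeletal muscle markers moved with *Slc7a2*. Over the 16 libraries the log2 level of the gene correlated with the log2 sum of these markers at r = 0.942, which is a description, since the libraries of both share their groups and scaling. The HRS leg of m866, the only HRS leg with *Slc7a2* among the PBS libraries, was also the only one with a muscle marker sum (146320) in the range of contralateral PBS legs. The part of the muscle markers in the *Slc7a2* values was not tested. The gene (9135 exonic bases) overlaps *Gm26584* on the opposite strand, and whether strand was used in counting is not given in the sources used here.

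*Ass1* (ENSMUSG00000076441.9, chr2:31470207-31520672, protein coding), argininosuccinate synthase, was at 5.39, 7.43, 20.3, 6.24 and 4.44 in HRS legs and at 1.01, 0.925, 0.787, 1.19 and 0.590 in the PBS legs of the same mice. PBS-only legs were at 1.41, 0.508, 0.50 and 1.79, and HRS-MBP libraries at 13.4 and 13.7. No HRS leg overlapped a PBS library, m866 included. The means were 8.77 ± 6.56 (SD, n = 5), 0.901 ± 0.227 (n = 5), 1.05 ± 0.651 (n = 4) and 13.5 ± 0.22 (n = 2), and the log2 difference from contralateral PBS legs was 2.53 (standard error 0.336).

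*Ido1* (ENSMUSG00000031551.12, chr8:24584136-24597009, protein coding), indoleamine 2,3-dioxygenase, showed no separation between HRS and PBS legs. It measured 0.941, 0.572, 1.89, 0.231 and 3.33 in HRS legs and 0.32, 2.22, 0.924, 0.235 and 0.592 in contralateral PBS legs. PBS-only legs ranged from 0.0568 to 2.18, with the legs of m867 at 0.0809 and 0.0568 and those of m868 at 0.652 and 2.18. HRS-MBP libraries were at 3.18 and 2.29, above every PBS library. The highest HRS leg was that of m866, the leg with the fewest macrophage markers. Means were 1.39 ± 1.25 (SD, n = 5), 0.859 ± 0.809 (n = 5), 0.743 ± 0.999 (n = 4) and 2.73 ± 0.627 (n = 2), and the log2 difference between HRS and contralateral PBS legs was 0.40 (standard error 0.503). The paralog *Ido2*, which begins 7802 bases away, was at most 0.607 in any library (at most 0.339 in HRS legs) and was too low to be tested.

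*Ch25h* (ENSMUSG00000050370.5, chr19:34473778-34475164, protein coding), cholesterol 25-hydroxylase, was low throughout. It stood at 1.03, 0.864, 2.34, 0.908 and 1.81 in HRS legs, against 0.0641, 0.0165, 0.277, 0.323 and 0.296 in contralateral PBS legs. PBS-only legs were at 0.445, 0.426, 0.130 and 0, the last from the shallowest library, where 3 reads would be worth 0.364, and HRS-MBP libraries were at 2.30 and 1.40. HRS legs lay above all PBS libraries. The means were 1.39 ± 0.655 (SD, n = 5), 0.195 ± 0.144 (n = 5), 0.25 ± 0.22 (n = 4) and 1.85 ± 0.636 (n = 2), and the log2 difference from contralateral PBS legs was 1.40 (standard error 0.257). The log2 difference of this low gene moved from 2.29 to 0.61 between the lowest and the highest pseudocount tried. The gene overlaps *Gm26902* on the opposite strand.

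Because HRS and PBS legs came from the same 5 mice, each gene was also set against its own contralateral leg. *Acod1* was higher in the HRS leg of 5 of 5 mice, by a median of 86.5-fold (range 78.9 to 431). *Ass1*, *Ch25h* and *Nos2* were also higher in 5 of 5 mice, with median ratios of 7.52 (range 5.23 to 25.8), 8.44 (2.81 to 52.4) and 2.23 (1.60 to 15.9). The largest *Ch25h* ratio, 52.4 in m863, rested on 1 read in the PBS leg (95% counting interval 9.14 to 2096), and that of m862 (16, interval 4.28 to 135) rested on 2 reads. *Ido1* was higher in 3 of 5 mice (median 2.05, range 0.257 to 5.63), and *Slc7a2* was higher only in m866 (1.41), with ratios of 0.423 to 0.689 in the other 4 mice.

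**Figure D2:**
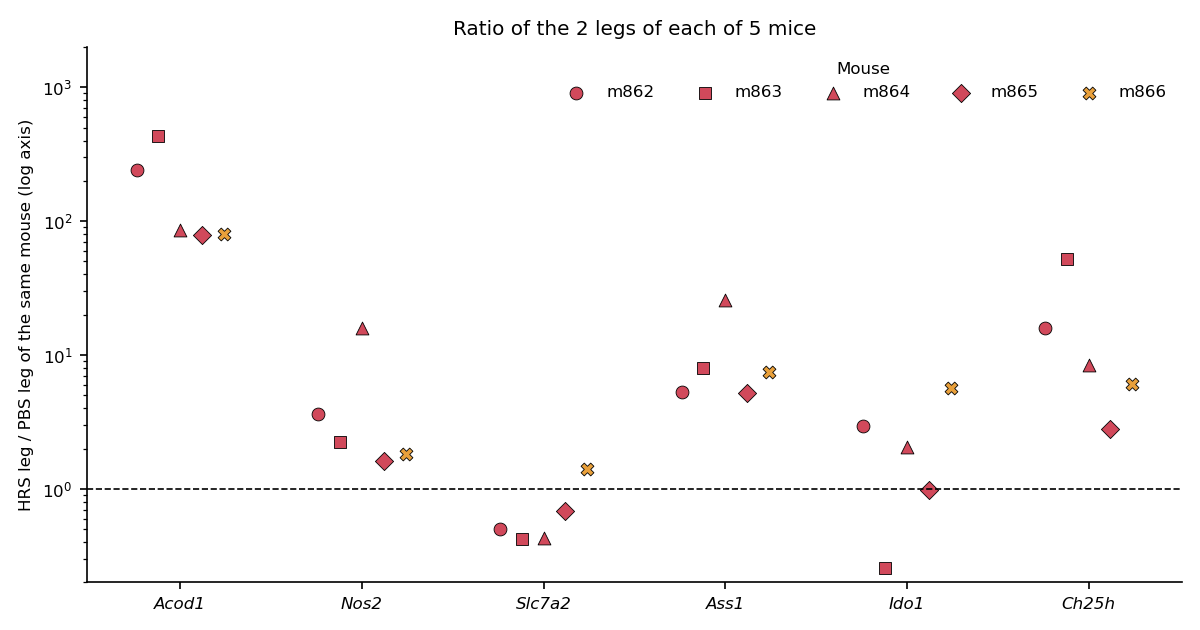
Ratio of the normalized count in the HRS leg to that in the PBS leg of the same mouse (log axis) for each gene, with 1 symbol per mouse and a dashed line at equal levels. All 5 mice are above the line for *Acod1*, *Nos2*, *Ass1* and *Ch25h*, and m866 lies on the opposite side from the other 4 mice for *Slc7a2*.

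Calls across all genes give the scale for these differences. A gene was called at an adjusted p below 0.05 (limma, Benjamini-Hochberg over 16414 genes) with an absolute log2 difference above 1. Between HRS and contralateral PBS legs, 4 of the 6 genes were past this rule as higher and 0 as lower, against 16.9% and 6.27% of all tested genes. Between HRS and PBS-only legs, the counts were 4 and 0 against 18.9% and 5.87%, and between HRS-MBP and PBS-only legs 5 and 0 against 20.7% and 10.2%. Every HRS leg lay above every contralateral PBS leg for 4 of the 6 genes and below for 0, against 18.3% and 3.19% of all genes. Since the genes were chosen on HRS against PBS, nothing is read from these counts. The median of the 6 log2 differences was 1.51, and that of all genes was 0.08. Scaling to equal totals made 93% of all calls between HRS and contralateral PBS legs higher, and quantile normalization 56.2%.

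Set against the macrophage markers, the genes did not follow 1 pattern. *Lyz2* was the largest part of the macrophage marker sum (mean 2112 in HRS legs and 116 in contralateral PBS legs). The markers were summed without weights. Per 1000 units of the macrophage marker sum, *Acod1* was at 10.0 to 36.6 in HRS legs and 23.4 and 30.3 with HRS-MBP, above the 0.338 to 4.39 of all PBS libraries. *Nos2* was at 1.55 to 10.5 in HRS legs, against 10.3 to 18.1 in contralateral PBS legs and 7.34 to 35.1 in PBS-only legs. On this scale, 4 of the 5 HRS legs lay below every contralateral PBS leg, m864 (10.5) lay among them, and the HRS-MBP libraries were at 7.21 (m860) and 22.5 (m861). *Ass1* was at 1.66 to 3.27 in HRS legs and 1.43 to 9.53 in PBS libraries, so the groups overlapped. *Slc7a2* was at 4.82 to 61.8 in HRS legs and at 144 to 517 in PBS libraries. *Ch25h* (median 0.33 in HRS and 0.642 in contralateral PBS legs) and *Ido1* (0.282 and 1.89) overlapped between these groups, with lower medians in HRS legs. Markers of monocytes (5 of 5 called higher), neutrophils (8 of 8 tested), dendritic cells (8 of 10), T and NK cells (7 of 7), B and plasma cells (5 of 5) and fibroblasts (3 of 5) were also higher in HRS than in contralateral PBS legs, those of skeletal muscle (3 of 6) and adipocytes (3 of 4) were called lower, and the part of each of these cell types in the 6 genes was not tested. Of all tested genes, 16.9% were called higher and 6.27% lower in this comparison. Several of these markers, *S100a8* and *S100a9* among them, averaged below 0.5 in both PBS groups. The summed level of the 4 adipocyte markers was 115 to 367 in HRS legs and varied from 235 to 2310 among contralateral PBS legs. The neutrophil marker *Ly6g* was at 0 in every PBS library and at most 0.27 in HRS legs. Other neutrophil markers were higher there, with *S100a9* at up to 27.5 and *Csf3r* at up to 63.1. The summed level of the 10 neutrophil markers was 10.5 to 148 in HRS legs and 1.28 to 3.56 in contralateral PBS legs. The hepatocyte marker *Alb*, checked because the liver is rich in *Ass1*, was at most 1.40 in any library.

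**Figure D3:**
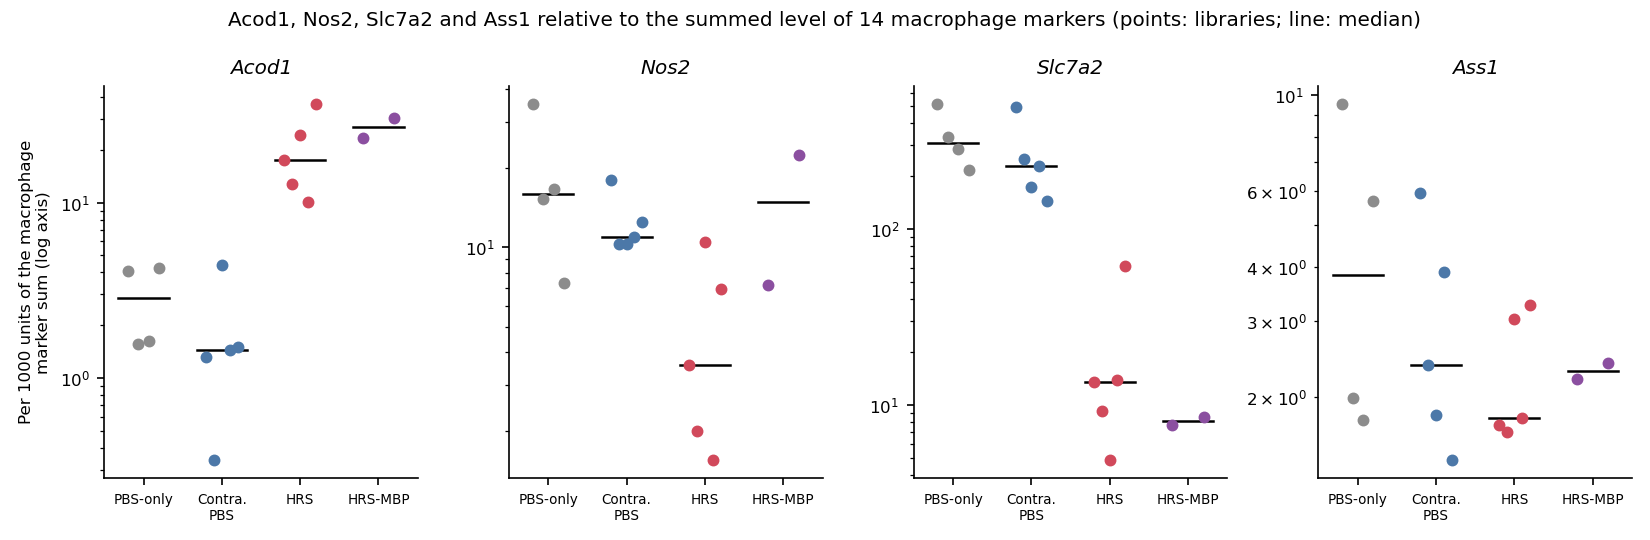
*Acod1*, *Nos2*, *Slc7a2* and *Ass1* per 1000 units of the summed level of 14 macrophage markers (log axis) in each library, with points for libraries and lines for group medians. *Acod1* stays above PBS on this scale (median 17.4 in HRS against 1.44 in contralateral PBS legs), *Nos2* is lower in HRS than in contralateral PBS legs at the median (3.57 against 11), *Slc7a2* is below every PBS library in HRS legs, and *Ass1* overlaps.

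Contralateral PBS legs were compared with PBS-only mice to ask whether muscle away from the HRS injection carried any of this change. *Ch25h* averaged below the filter of 0.5 in both of these groups (0.195 and 0.25), so it is given as values only. None of the other 5 genes was called (limma, adjusted p = 1 for each), 0 had an unadjusted p below 0.05 and 0 were called by limma-voom, and the exact two-sided permutation p of 5 against 4 libraries ranged from 0.683 to 0.937, where the smallest possible is 0.0159. The log2 differences were -0.16 (standard error 0.417) for *Acod1*, 0.02 (0.539) for *Nos2*, 0.27 (0.533) for *Ido1*, -0.02 (0.21) for *Slc7a2* and -0.06 (0.357) for *Ass1*. Across all genes, 0.00609% were called in this comparison and 902 had an unadjusted p below 0.05. PBS-only libraries are legs of 2 mice, but both tests count them as 4 separate samples, so their p-values rest on fewer animals than libraries.

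HRS-MBP libraries were set against HRS legs to ask whether the fusion protein gave a different response. *Nos2* was higher with HRS-MBP by 2.48 on the log2 scale (standard error 0.672), and its adjusted p in limma was 0.121. *Acod1* was higher by 1.34 (standard error 0.52, adjusted p = 0.263 in limma), *Ido1* by 1.0 (0.665, 0.499) and *Ass1* by 0.82 (0.445, 0.407). *Ch25h* differed by 0.35 (standard error 0.34, adjusted p = 0.655 in limma) and *Slc7a2* by 0.02 (0.262, 0.977). None of the 6 genes was called, against 0.463% of all genes, but *Nos2* and *Acod1*, 2 of the 6, had an unadjusted p below 0.05 in limma, as did 14.4% of all genes. The count was 0 also with limma-voom and under each of the other scalings and filters. The exact permutation p lay between 0.19 and 0.762, where 2 against 5 libraries cannot go below 0.0952. Without the HRS leg of m864, which held the highest *Acod1*, *Nos2* and *Ass1* of its group, 3 genes were called by limma: *Nos2* (log2 difference 3.08, adjusted p = 0.000575), *Acod1* (1.70, 0.0291) and *Ass1* (1.16, 0.0425). Removing the highest library of these 3 genes widens their difference by construction, and 3.59% of all genes were called in the same fit. Construct, dose in the titles and mice differ together in this contrast and cannot be told apart.

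**Figure D4:**
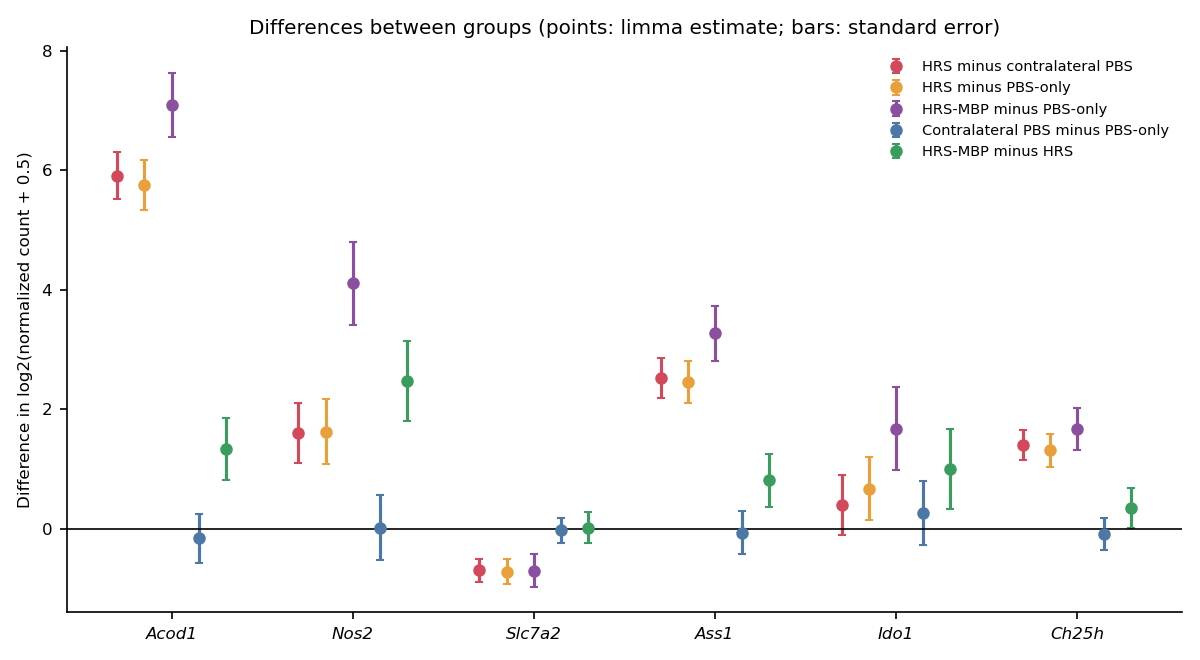
Difference in log2(normalized count + 0.5) between groups for each gene, with the limma estimate as a point and its standard error as a bar. The differences between contralateral PBS and PBS-only legs lie near 0, at -0.16 to 0.27, and the difference between HRS-MBP and HRS legs is largest for *Nos2*, at 2.48.

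The genes most like each member over all 16 libraries give a further view of these patterns, although such correlations mostly carry the difference between HRS and PBS muscle and are given as a description. *Acod1* was most like *Fpr1*, the formyl peptide receptor (r = 0.995), *Marco*, a macrophage scavenger receptor (0.994), and *Serpina3g* (0.993). *Marco* was at 37.9 to 279.9 in HRS legs and at most 4.25 in PBS libraries. *Nos2* was most like *Slamf1*, *Gimap6* and *Slc28a2* (r = 0.97, 0.969 and 0.969), and *Slamf1* in HRS legs was highest in m864, at 3.13. *Ass1* was most like *Gk* (0.982), *Spib* (0.982) and *Mcemp1* (0.981), and *Ch25h* like *Erap1* (0.934), *Ptprcap* (0.931) and *Ubd* (0.931). *Slc7a2* was most like *Map2k4* (0.977), *Wwp1* (0.976) and *Trim23* (0.974), and *Ido1* had the weakest likeness, to *Tnfsf10* (0.77), *Wars* (0.77) and *Gm43042* (0.759).

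Other genes of the same pathways are not among the 6. Their lists were also drawn up with earlier results of HRS against PBS muscle known, so the counts and p-values for that contrast describe these genes, are not independent evidence of a direction, and nothing is read from their shares against those of all genes. Of 128 listed genes, 113 passed the filter on low values. Between HRS and contralateral PBS legs, 41 were called higher (36.3%) and 11 lower (9.73%), against 16.9% and 6.27% of all genes, with a median log2 difference of 0.40 against 0.08. The same 16.9% and 6.27% stand behind the counts of each list given below for this comparison. Of the 41, 9 averaged below 0.5 in both PBS groups and passed the filter only through the injected groups, which left 32 of 104 higher without them. These 9 remain in the counts of the lists given below. Between HRS and PBS-only legs, which share the HRS libraries, 42 were called higher and 7 lower (18.9% and 5.87% of all genes were), and between HRS-MBP and PBS-only legs 44 and 18 (20.7% and 10.2%). Between contralateral PBS and PBS-only legs, limma called 0 of the 113, with 7 at an unadjusted p below 0.05 (5.5% of all genes were), and limma-voom called 0. Between HRS-MBP and HRS legs, both called 0, with 20 at an unadjusted p below 0.05 in limma (14.4% of all genes were), and 9 were called without the HRS leg of m864 (3.59% of all genes were). The lower calls depended on the scaling and on m866. Only 1 was left between HRS and contralateral PBS legs with libraries scaled to equal totals, and 23 were called without mouse m866.

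Around itaconate, 2 of 22 tested genes were called higher and 6 lower. *Slc13a3*, a carrier of dicarboxylates including itaconate, rose from 1.71 ± 1.02 (SD, n = 5) in contralateral PBS legs to 15.1 ± 4.42 (n = 5) in HRS legs (log2 difference 2.89, limma adjusted p = 4.33e-06), and *Rab32*, a small GTPase linked to itaconate delivery to vacuoles that hold bacteria, from 2.93 ± 1.08 to 25.6 ± 16.6 (2.77, 9.96e-06). The 6 lower genes were enzymes of the Krebs cycle, and 3 of 6 skeletal muscle markers were called lower beside them. The part of these muscle genes in the lower levels was not tested.

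Around arginine, 10 of 30 tested genes were called higher and 4 lower. The 10 include *Nostrin*, which averaged below 0.5 in both PBS groups. *Slc7a7*, which exports cationic amino acids, rose from 1.96 ± 0.275 to 10.6 ± 4.38 (log2 difference 2.05, limma adjusted p = 2.61e-05), and *Ddah1*, which degrades methylarginine inhibitors of nitric oxide synthases, from 5.03 ± 0.787 to 25.7 ± 14.3 (1.94, 0.00292). *Nos1*, the neuronal-type nitric oxide synthase of muscle fibers, fell from 86.7 ± 16.9 to 25.2 ± 19.3 (-1.98, 0.000129) in 5 of 5 mice, opposite to *Nos2*. *Nos3*, the endothelial form, was at 19.5 ± 6.75 and 13.1 ± 1.87 (-0.51, 0.0253) and did not pass the size threshold. *Slc7a1*, the arginine transporter CAT1, rose from 4.57 ± 0.952 to 10.8 ± 3.20 (1.12, 0.000812), while *Slc7a2* was lower. *Slc7a1* did not pass the size threshold without the HRS leg of m864, or against PBS-only legs (0.99, limma adjusted p = 0.00248). *Asl*, which follows *Ass1* in arginine synthesis, was at 9.10 ± 0.979 and 12.2 ± 1.48 (0.40, 0.00794), below the size threshold.

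Around tryptophan, 8 of 17 tested genes were called higher and 0 lower. The 8 include *Kynu*, *Haao* and *Ahrr*, which averaged below 0.5 in both PBS groups and passed the filter only through the injected groups. *Cyp1b1*, a target of the aryl hydrocarbon receptor, rose from 2.13 ± 1.74 to 18.6 ± 10.8 (log2 difference 2.88, limma adjusted p = 7.32e-05). *Slc7a5*, a transporter of tryptophan and other large amino acids, rose from 4.19 ± 1.59 to 15.7 ± 6.39 (1.74, 0.000255), and *Il4i1*, an amino acid oxidase, from 1.28 ± 1.08 to 3.97 ± 1.99 (1.44, 0.00391). *Ido1* itself overlapped between the groups.

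Around oxysterols and cholesterol, 7 of 21 tested genes were called higher and 1 lower. *Abcg1*, a cholesterol exporter, rose from 5.55 ± 1.71 to 47.5 ± 21.9 (log2 difference 2.85, limma adjusted p = 1.95e-05), and *Soat1*, which esterifies cholesterol, from 5.86 ± 1.26 to 48.4 ± 24.7 (2.73, 3.45e-05). *Cyp7b1*, which acts on the product of *Ch25h*, counts among the 7 called higher. It is given without a test, since it averaged below 0.5 in both PBS groups. It was at 0.455 ± 0.311 in contralateral PBS and 4.47 ± 3.31 in HRS legs. *Gpr183*, the receptor for the resulting oxysterol, rose from 0.827 ± 0.418 to 2.37 ± 1.04 (1.08, 0.00386), a call that was lost with a pseudocount of 2, where the difference was 0.60.

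Among inducing signals and transcription factors, 14 of 23 tested genes were called higher and 0 lower. The 14 include *Il1b*, *Tnf* and other genes that averaged below 0.5 in both PBS groups. *Tlr2*, a receptor for bacterial lipoproteins, rose from 3.27 ± 0.632 to 43.4 ± 23.3 (log2 difference 3.40, limma adjusted p = 1.96e-06). The cytokine genes *Il1b* and *Tnf* are for that reason given without a test. *Il1b* was at 0.226 ± 0.187 in contralateral PBS and 13.4 ± 10.9 in HRS legs, and *Tnf* at 0.222 ± 0.217 and 8.40 ± 6.27, and all 3 genes were higher in the HRS leg of 5 of 5 mice. With m866 removed as a mouse, the log2 differences of the 6 genes between HRS and contralateral PBS legs were 6.02 for *Acod1*, 2.61 for *Ass1*, 1.81 for *Nos2*, 1.37 for *Ch25h*, 0.05 for *Ido1* and -0.99 for *Slc7a2*.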

How the data were processed

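Bulk RNA was measured in 16 libraries of mouse hamstring muscle. The authors deposited normalized counts per gene, a linear signal with no values below 0. The submitters' processing notes name STAR 2.7.8a, limma and mm39 (GRCm39), but 25652 of 26382 genes matched GENCODE M21 of GRCm38 by symbol and chromosome, 98.9% of them with the same start and end, so positions are given as GRCm38. The annotation, the scaling factors and the use of strand are not given in the sources used here. Between 74.7% and 76.8% of low values were whole multiples (within 0.02) of the smallest step, too few to recover reads, and count models were not applied. That step gave the implied depth, the worth of 3 reads and exact (Clopper-Pearson) counting intervals at 95%, which cover counting error only.

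Tests used limma 3.58.1 in R 4.3.3 (lmFit, then trended eBayes) with all 16 libraries in a fit of 4 groups. Values entered as log2(normalized count + 0.5), and the 16414 genes that averaged 0.5 or more were kept. Fold changes on this scale understate low genes. Adjusted p is Benjamini-Hochberg over all 16414 genes. The libraries came from 9 separate mice, but the fit treats both legs of a mouse as separate samples. Single genes were also compared by exact two-sided permutation of libraries (scipy 1.17.1). The code was tested on simulated data. The same mouse number means the same animal, so legs of m862 to m866 are paired. Across genes, the departures of both legs from the mean of their group correlated at 0.12, 0.16, 0.10, -0.03 and -0.37. The fit has no block, and mouse as a block is an alternative.

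The 6 genes, the pathway lists and the marker lists were chosen with earlier results of these data known. Named genes were the 6, the 3 largest called differences in each pathway list, close family members, the 3 genes most correlated with each of the 6, and defining markers. Some genes that these rules name and 1 motif are not reported here. Alternatives covered the pseudocount, the filter, the scaling, the variance model, limma-voom, the block, a fit of only the compared groups, averaged PBS-only legs, and leaving out each library or mouse m866. Exonic length came from the union of GENCODE M21 exons. Promoters are RefSeq windows (GRCm38.p6).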

Additional observations from a re-analysis of the deposited data

Results flagged for a closer look

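Within groups of 4 or more libraries, 4 of 18 combinations of gene and group held a library far from the rest of its group by Dixon's criterion on the linear scale. Chance flags about 1 in 20 groups of normally distributed values, but by the same criterion 10.3% of all pairs of tested gene and group were marked here (13.8% in HRS legs), and all 4 come from 1 mouse and 3 of them from 1 library, so they are not independent and their number is not read against either rate. In HRS legs, mouse m864 stood apart for *Acod1* (164, the next at 56.8), for *Nos2* (70.4, the next at 11.1) and for *Ass1* (20.3, the next at 7.43). The contralateral PBS leg of the same mouse stood apart for *Acod1* (1.89, the next at 0.619). Mouse m864 also held the highest macrophage marker sum of the HRS legs, at 6718, and its part in these values was not tested.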

How the results depend on the processing

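Counts of called genes in either direction were recomputed for the 6 genes in the 2 tested contrasts and for the pathway genes in the other 3 comparisons, and 106 of 107 alternative values stayed within 1.5 times the count given, or at 0. The exception was HRS-MBP against HRS legs without the HRS leg of m864, where 3 of the 6 genes were called. Outside those 107, the pathway genes called in that comparison also moved, from 0 to 9 of 113, without the same leg. Leaving out each library in turn gave 0 to 3 of the 6 genes in that comparison. No called difference of a named gene changed sign. With mouse as a replicate block, 0 of the 6 genes were called in both tested contrasts, where the random block applies, and the paired fits changed no call of a named gene. Other counts moved more. The pathway genes called lower between HRS and contralateral PBS legs (11) were 1 after scaling to equal totals and with limma-voom, 3 without the HRS leg of m864, 7 without that of m865 and 22 without that of m866, and those called higher (41) were 27 with a pseudocount of 2. Against PBS-only mice, the 7 lower calls became 2, 2, 3 and 16 with equal totals, limma-voom, without the HRS leg of m864 and without that of m866, and 4 without that of m863. For HRS-MBP, 18 lower calls became 2 with equal totals or limma-voom and 8 without m860. *Slc7a1* and *Gpr183* each lost their call between HRS and contralateral PBS legs when 1 library was left out (*Slc7a1* 1.0 without the HRS leg of m864, and *Gpr183* 0.94 without that of m863, 0.98 without that of m865 and 0.92 without the contralateral PBS leg of m862), in each case by the size threshold. The cause of these shifts was not tested. A filter on a mean of at least 2 removed *Ido1* and *Ch25h* from the tests. Depth limits *Ch25h* in PBS muscle, where it rests on at most 15 reads, and the group sizes of 2 mice limit both tested contrasts.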
